A study of Homo sapiens with 4 samples.

Results

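Each c-Jun peak called with TNFalpha that overlapped a peak called without it was paired with that peak, and the 558 pairs whose score rank was furthest higher with TNFalpha are described here. They were taken from 2231 pairs in all and made up 12.6% of the 4439 peaks called against IgG with TNFalpha. The cells were the established human cell line BT549, from a triple-negative breast cancer. Chromatin was fixed with 1% formaldehyde for 10 minutes and recovered with an antibody against c-Jun (H-79), so that sequencing of the recovered DNA maps where c-Jun was bound. Of the 4 libraries, 1 c-Jun library came from serum-starved cells without TNFalpha and 1 from serum-starved cells with it. The controls were 1 library made with normal rabbit IgG and 1 of input chromatin, both from cells that had received TNFalpha, so the c-Jun library without TNFalpha had no control of its own condition. The sample labels give 6 hours of TNFalpha and the series text gives 3 hours.

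c-Jun forms part of AP-1, a group of leucine zipper dimers formed by Jun, Fos and ATF proteins that bind short palindromic DNA elements. TNFalpha is an inflammatory cytokine whose receptor activates the JNK kinases, which phosphorylate the activation domain of c-Jun, and NF-kB. AP-1 is found at many enhancers in mesenchymal cells and can occupy a site before a stimulus is given. The paired peaks are sites called in both conditions, where the comparison is one of rank and not of presence.

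Each list gives 1 score per peak, made by the authors' peak caller on a scale not given in the sources used here. The score of each peak was turned into its percentile within its own whole IgG list, where 100 is the highest score, and pairs were ordered by the percentile with TNFalpha minus the percentile without. These ranks chose the members, so their size is a description and was not tested. Each condition had 1 library and no replicate check. Read depth is unknown, and the lists held 4439 peaks with TNFalpha and 3323 without it. A higher rank is not in itself a gain of binding, since each further peak called with a lower score raises the percentile of the peaks above it. Peak lists hold no expression values, so the labelled cell type was not checked.

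Of the 4439 peaks with TNFalpha, 2231 (50.3%) overlapped a peak without TNFalpha and 2208 did not. The 2231 pairs used 2221 different peaks of the library without TNFalpha. For 22 peaks with TNFalpha there were 2 partners, and the higher scoring one was used. By construction the rising pairs were 25% of all pairs. Each of the 558 had its own partner, and 8 of them had been offered 2. The remaining pairs were divided into the 558 with the lowest differences, called the falling pairs, and 1115 middle pairs.

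The rank differences of the rising pairs ran from 20.05 to 91.8 percentile points, with a median of 37.8. A difference of 50 or more was reached by 147 pairs, and 188 pairs lay at 30 or less. The median percentile was 29.8 without TNFalpha (interquartile range 13.9 to 47.5) and 75.2 with TNFalpha (61.2 to 87.6). Without TNFalpha, 433 of the 558 lay below the median of their list and 101 lay in its lowest 10%. Over all pairs, 37.0% and 5.78% did. With TNFalpha, 281 rising pairs were at or above percentile 75 (50.4%) and 112 at or above percentile 90 (20.1%), against 38.1% and 16.7% of all pairs. Of the 1115 middle pairs, 558 and 261 stood there (23.4% for the latter). The median percentile of the middle pairs was 75.05 with TNFalpha, close to that of the rising pairs, and 73.1 without it.

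The rising pairs did not share a single path. Some 59 went from below percentile 25 to percentile 75 or above, and 158 went from below percentile 50 to percentile 75 or above. Of the 1673 other pairs, 0 took either path, since a rise of that size makes a pair a member. Another 79 lay below percentile 50 in both lists (14.2%, against 18.8% of all pairs). Their rank was higher with TNFalpha and still low. The highest starting percentile was 77.8. Of the 129 pairs that started in the lowest 10% of the list without TNFalpha, 101 were rising pairs, and of the 287 that started between percentiles 70 and 80, 20 were. The rule subtracts the starting percentile, so a low start favours membership and these counts are a description. A pair that started above percentile 80 could not gain the 20.05 points needed, and 0 of 635 such pairs were members.

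**Figure D1:**
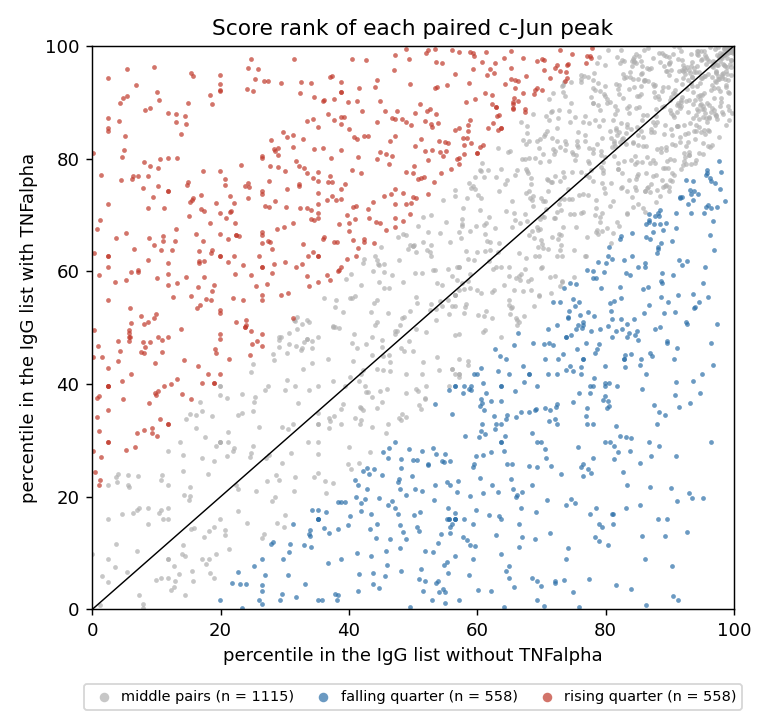
Percentile of the c-Jun peak score in the IgG list without TNFalpha (x axis) and with TNFalpha (y axis), 1 point per pair, with the line of equal percentile. The rising pairs (red) lie at least 20.05 points above the line and thin out towards the right, with none beyond a starting percentile of 77.8.

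The limit of the group was not a gap in the data. Positions are those of the peak with TNFalpha on hg19, counted from 1. The last 3 pairs inside it lay on chr11:106858631-106859512 (difference 20.2), chr17:57914733-57915400 (20.1) and chr6:48794434-48794950 (20.05). All 3 were strong with TNFalpha, at percentiles 97.9, 93.7 and 96.9. The first 3 pairs outside lay on chr12:58819184-58819670 (19.99), chr3:28095169-28095628 (19.98) and chr3:189781956-189782258 (19.96). Their percentiles with TNFalpha were 93.5, 51.4 and 24.0, so pairs at the limit differed widely in strength and little in rank difference.

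The 20 pairs with the largest differences, between 76.5 and 91.8 points, came from 10 chromosomes. Without TNFalpha they stood at percentiles 0.135 to 15.6, with 16 of 20 in the lowest 10% of the list. With TNFalpha they stood at 81.0 to 96.3, with 10 of 20 in the highest 10%. The largest difference was on chr12:115779192-115779652. This peak held rank 3208 of 3323 without TNFalpha and rank 253 of 4439 with it, percentiles 2.54 and 94.3. It was 281 bp wide without TNFalpha and 461 bp with it, and its centre moved by 14 bp.

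The second, on chr8:59108440-59109196, went from percentile 5.36 to 95.8. It was called against input with TNFalpha, at percentile 95.8 of that list, and was not called against input without TNFalpha. The third, on chr6:134910592-134911290, went from rank 3005 to rank 167 and from 231 to 699 bp in width, the largest ratio of widths among the 20 (3.03). The fourth, on chr9:71115292-71116432, was the widest of the 20 with TNFalpha (1141 bp) and had been 405 bp wide without it. The fifth, on chr5:35857861-35858331, went from percentile 4.85 to 90.7. It was the only 1 of the 20 with a peak found only with TNFalpha within 20 kb.

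The next 5 pairs had differences of 82.5 to 85.8 points. On chr15:45748444-45749080 the percentile was 5.402 without and 91.2 with TNFalpha, and on chr5:60076413-60076840 it was 4.41 and 89.8. On chr2:44805554-44806033 it was 2.54 and 87.2. On chr9:119311534-119312060 it was 2.54 and 85.4, with the centres of both peaks at the same position. On chr3:106279255-106279990 it was 4.17 and 86.7. Several of the 20 shared a starting percentile because scores were tied at the bottom of the list without TNFalpha: 64 of its peaks had the score 50.8, and 4 of the 20 were among them. When overlap of at least 50% of both peaks was required, 8 of the 20 were still members. A peak more than 2 times as wide with TNFalpha as its partner cannot meet this overlap with it. The median ratio of widths among the 20 was 2.16.

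The second 10 covered differences of 76.5 to 82.4 points. They lay on chr5:82863544-82864427, on chr6:3592457-3593090 and 114015434-114016035, and on chr4:98577214-98577583 and 162857658-162858482. The others lay on chr1:211291640-211292413, chr2:47082319-47082863, chr3:28001641-28002083, chr15:92499264-92499942 and chr8:39800110-39800563. The chromosome 4 peak at 98577214 had the lowest rank of the 20 without TNFalpha, 3318 of 3323, and reached percentile 81.0 with it. The chromosome 3 peak at 28001641 reached percentile 95.2 and the chromosome 4 peak at 162857658 reached 94.7, from 15.4 and 15.6.

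**Figure D2:**
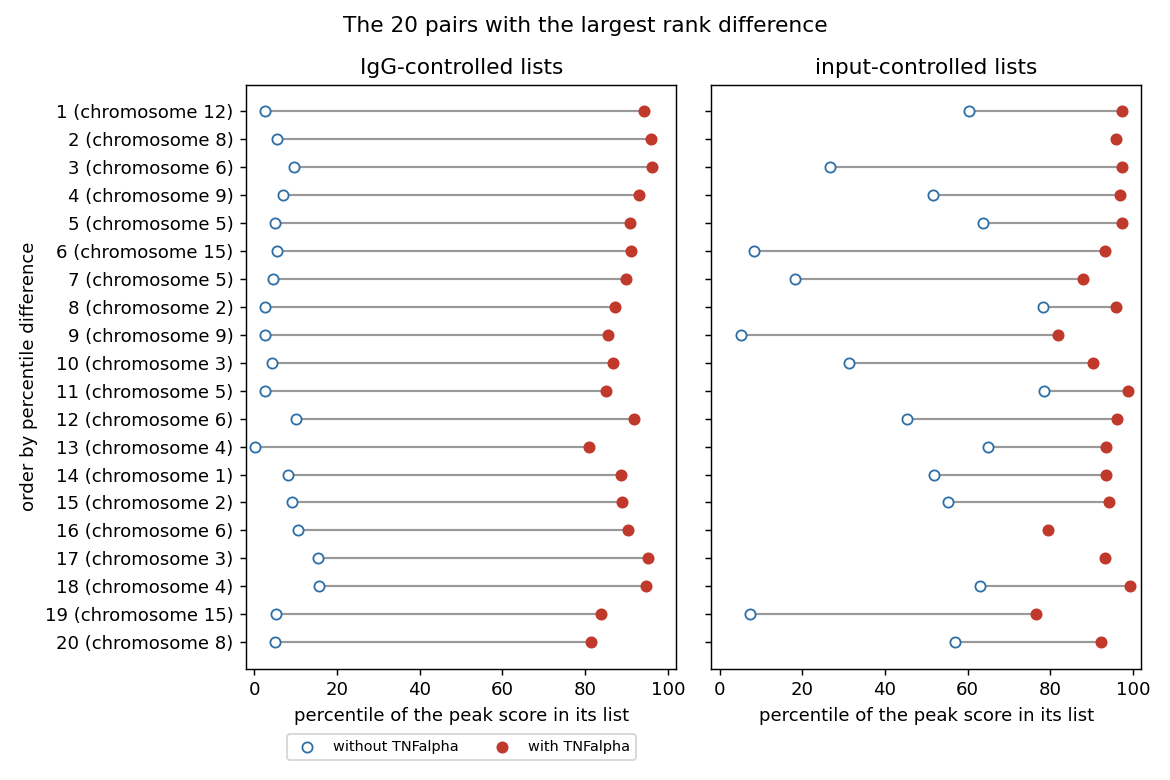
The 20 pairs with the largest rank difference, by order (y axis), with the percentile of the peak score without TNFalpha (open) and with it (filled) in the IgG lists (left) and the input lists (right). In the IgG lists the open points lie at 15.6 or below and the filled points at 81.0 or above, while in the input lists 10 open points lie at 50 or above and 3 are missing because no peak was called.

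The rising pairs that were strongest with TNFalpha formed a different set, sharing 0 members with the 20 above. The 10 highest stood at percentiles 98.9 to 99.6 with TNFalpha and at 48.9 to 77.8 without it. The highest was on chr6:160122428-160123107, rank 20 of 4439 with TNFalpha and rank 738 of 3323 without it. Its width was nearly the same in both libraries, 631 and 680 bp. The next was on chr9:82935235-82936415, at percentiles 48.9 and 99.5, and it went from 430 to 1181 bp in width. The third, on chr16:56639951-56641758, stood at percentiles 53.5 and 99.4. It was 373 bp wide without TNFalpha and 1808 bp with it, a ratio of 4.85 that was the highest of all 558 rising pairs.

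A peak on chr14:101946852-101947833 stood at percentiles 56.0 and 99.3, and one on chr3:177545182-177545786 at 52.4 and 99.3. The latter kept its centre exactly while its width went from 437 to 605 bp. On chromosome 9, a peak 133722556-133723457 stood at percentiles 72.8 and 99.3, and one 102031446-102032226 at 57.2 and 98.9. The remaining 3 lay on chr6:164293187-164293795 (65.3 and 99.1), chr3:99620044-99620787 (61.4 and 98.9) and chr20:37670781-37671718 (58.8 and 98.9). Among the 445 peaks in the highest 10% of the list with TNFalpha, 373 were paired and 112 of those were rising pairs (30.03%). By construction the share over all pairs was 25%, so rising pairs were only somewhat more frequent among the strongest paired peaks.

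Rising pairs were mostly wider with TNFalpha. The median width was 356 bp in the cells without TNFalpha, with 308 to 424 bp as the interquartile range, and 500 bp with TNFalpha (413 to 642 bp), and the median of the ratios was 1.40. Of the 558, 509 were wider with TNFalpha (91.2%, 95% Wilson interval 88.6 to 93.3%) and 49 were narrower. Over all pairs 64% were wider and 35.5% narrower, and among the falling pairs 167 of 558 were wider (29.9%, 26.3 to 33.9%). A ratio of at least 1.5 was seen in 218 rising pairs (39.1%), against 15.4% of all pairs, and a ratio of at least 2 in 78. Width and score come from the same reads of the same 2 libraries, so width was not an independent measure and was not tested.

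Peaks of higher rank with TNFalpha were also wider, so width was compared at like rank. Among pairs between percentiles 50 and 75 with TNFalpha, the median width with TNFalpha was 457 bp for 198 rising pairs and 445 bp for 409 other pairs. The medians without TNFalpha were 346 and 433 bp. Between percentiles 75 and 90 the medians with TNFalpha were 514 and 546 bp, and above percentile 90 they were 710.5 and 723 bp. Above percentile 90 the medians without TNFalpha were 409.5 bp for 112 rising pairs and 592 bp for 261 other pairs. At like rank with TNFalpha the rule gives the rising pairs the lower rank without it. Since width goes with rank, these medians follow in part from how the members were chosen and are given as a description.

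The peak with TNFalpha often covered the whole earlier peak, which does not show that width was added evenly on both sides. In 347 of 558 rising pairs (62.2%) the peak without TNFalpha lay wholly inside the peak with TNFalpha, against 36% of all pairs and 49 of 558 falling pairs (8.78%). The centres of the 2 peaks of a rising pair were a median of 51.5 bp apart (interquartile range 23 to 92.2 bp). The median was 40.0 bp in both the middle and the falling pairs. Examples of large widening outside the top of the list were a peak on chr9:27539522-27540558, from 292 to 1037 bp, and one on chr14:71363641-71364461, from 239 to 821 bp. These and the next examples were chosen by their ratio after the values were seen. The peaks on chr6:45990941-45991633 and on chr1:246149614-246150689 had ratios of 3.43 and 3.41.

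**Figure D3:**
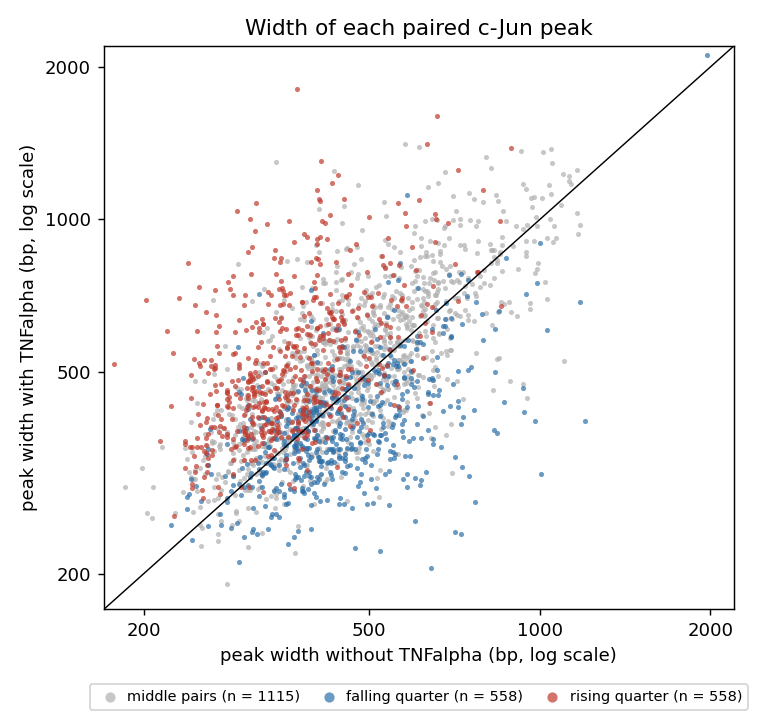
Width in bp of each paired peak without TNFalpha (x axis) and with TNFalpha (y axis), both on log scales, 1 point per pair, with the line of equal width. Of the rising pairs (red), 509 of 558 lie above the line.

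The same libraries were also called against input, in lists of nearly equal length (8040 peaks with TNFalpha and 7919 without). These lists rest on the same c-Jun reads as the rule and show how far the order depends on the control, not a repeat of the experiment. Of the 558 rising pairs, 550 overlapped an input-controlled peak with TNFalpha (98.6%) and 491 without it (88.0%). Over all pairs these shares were 96.1% and 94.5%. The 67 without an input-controlled peak in 1 or both libraries were 59 called only with TNFalpha and 8 called in neither, and 0 were called only without it, which allows a share of up to 0.538% (3 counts of 558, counting error only). The share called only with TNFalpha was 10.6% for rising pairs, against 3.77% of all pairs. Over all pairs, 2.20% were called only without TNFalpha and 1.75% in neither library. Of the falling pairs, 1 was called only with TNFalpha and 39 only without it.

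Among the 491 rising pairs that could be ranked in both input lists, 471 stood higher with TNFalpha (95.9%, 95% Wilson interval 93.8 to 97.3%), against 46% of all pairs. The median difference was smaller than against IgG, 17.2 points (interquartile range 9.33 to 27.3). The members were chosen by their difference against IgG, which favours a larger difference there. A difference of 20 points or more was seen in 204 (41.5%), against 11.4% of all pairs. The medians in the input lists were 65.3 without TNFalpha (491 pairs) and 83.7 with it (550 pairs). The latter include the 59 pairs called against input only with TNFalpha. The starting rank depended on the control: of the 237 rising pairs below percentile 25 of the IgG list without TNFalpha, 194 could be ranked in both input lists, and 124 of these stood at or above percentile 50 of the input list of that library. The percentiles of that library refer to 7919 peaks against input and to 3323 against IgG. Ranked within paired peaks alone, the largest 25% by each control had a median difference of 34.8 against IgG and 31.8 against input. Each of these sets was chosen by its own control, so they are not the same pairs. The parts of list length and of the choice of members in the smaller input differences were not tested.

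Among the 20, the smallest differences against input were in the pairs with the highest input percentiles without TNFalpha. The peak on chromosome 2 at 44805554 stood at percentiles 78.3 and 95.9 of the input lists, a difference of 17.6 in place of 84.7. The peak on chromosome 5 at 82863544 stood at 78.5 and 98.9, a difference of 20.4 in place of 82.4. Other members kept a large difference under both controls. The peak on chromosome 15 at 45748444 stood at percentiles 8.45 and 93.3 against input, and the peak on chromosome 9 at 119311534 at 5.203 and 81.8. The largest difference against input was on chr8:25336730-25337375, at percentiles 1.74 and 92.2 against input and 37.1 and 94.5 against IgG. That peak was chosen after its values were seen. Of the 20, 17 could be ranked in both input lists and all 17 stood higher with TNFalpha.

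**Figure D4:**
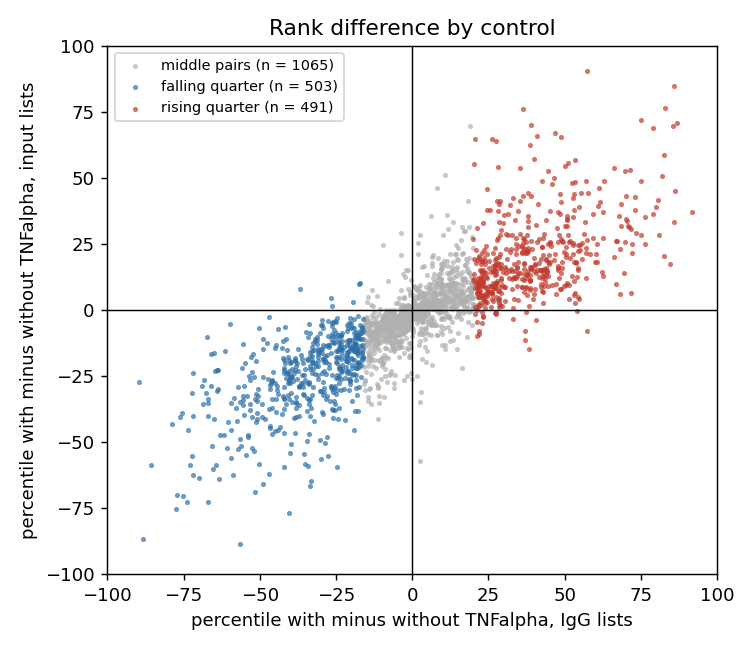
Percentile with TNFalpha minus percentile without it in the IgG lists (x axis) and in the input lists (y axis), 1 point per pair ranked in all 4 lists. The rising pairs (red) fall above 0 on the y axis in 471 of 491 cases, with a median of 17.2 against input.

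The surroundings of the rising pairs were described with the c-Jun peaks of the same libraries that had no partner. Peaks called against IgG with TNFalpha that overlapped no peak of either list without TNFalpha numbered 1683, and the reverse class numbered 729. A peak found only with TNFalpha lay within 20 kb of the centre of 106 rising pairs (19.0%, 95% Wilson interval 16.0 to 22.5%), against 14.7% of all pairs. The share was 13.9% for the middle pairs (11.99 to 16.1%) and 11.8% for the falling pairs (9.41 to 14.8%). Within 5 kb it was 10.4% for rising pairs, against 7.62% of all pairs and 5.56% of falling pairs. Within 100 kb it was 36.6%, against 30.9% of all pairs and 26.2% of falling pairs. The share was highest in the rising pairs at each of the 3 distances. Intervals of rising and falling pairs were apart at each distance, and those of rising and middle pairs met. They treat pairs as independent and cover counting error only, and neighbouring pairs can share a neighbour.

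The share is given next by rank with TNFalpha. Above percentile 90, 30 of 112 rising pairs (26.8%, 19.4 to 35.7%) and 44 of 261 other pairs (16.9%, 12.8 to 21.9%) had such a neighbour within 20 kb. Between percentiles 75 and 90 the shares were 20.7% and 13.0%, and between 50 and 75 they were 15.7% and 13.2%. The intervals of rising and other pairs met in each of the 3 bands. The share with any other peak of the list with TNFalpha within 100 kb was also higher for rising pairs in each band. Above percentile 90 it was 84 of 112 rising pairs (66.2 to 82.1%) and 173 of 261 other pairs (60.3 to 71.7%). Between percentiles 75 and 90 the shares were 65.1% and 62.9%, and between 50 and 75 they were 61.1% and 56.7%. The part of this density in the neighbours found only with TNFalpha was not tested. Peaks found only without TNFalpha lay within 20 kb of 25 rising pairs (4.48%, 3.05 to 6.53%), against 5.33% of all pairs, and within 100 kb of 12.9%, against 13.9%. The falling pairs had 6.63% and 14.3%.

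**Figure D5:**
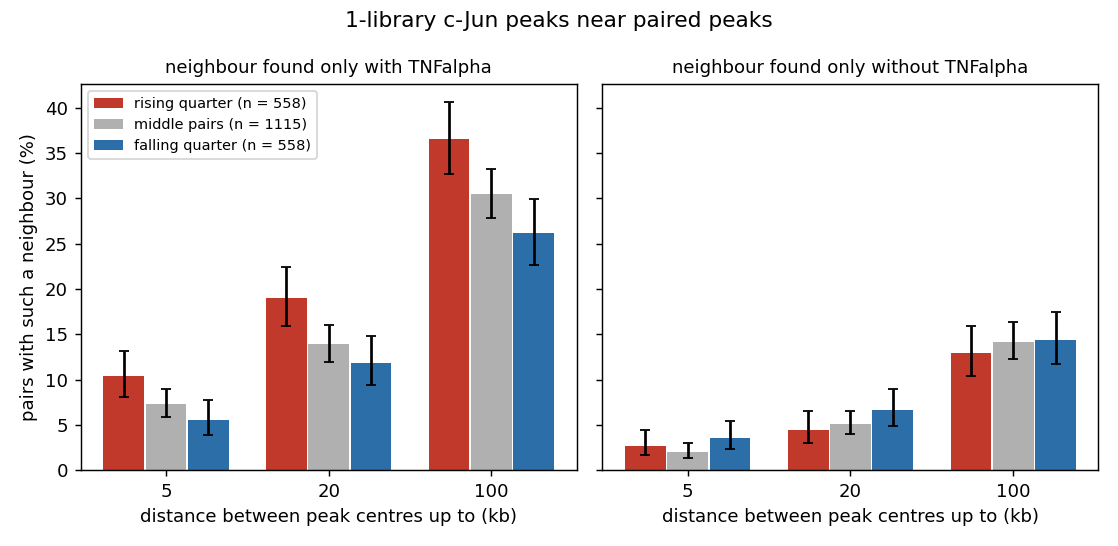
Percentage of pairs (y axis) with a c-Jun peak found only with TNFalpha (left) or only without it (right) up to 5, 20 or 100 kb from the peak centre (x axis), for rising, middle and falling pairs, with 95% Wilson intervals as error bars. On the left the rising pairs are highest at each distance (10.4, 19.0 and 36.6%), and on the right the intervals of the 3 classes overlap.

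Some rising pairs sat among several peaks found only with TNFalpha, and those with most of them within 100 kb are named here, chosen after the counts were seen. The pair on chr4:74545541-74546042 had 7 such peaks within 100 kb and 0 within 20 kb. Its own difference was near the limit, with percentiles of 43.8 and 65.1. The pair on chr8:22240241-22240692 had 5, of which 3 lay within 20 kb, and stood at percentiles 28.5 and 81.4. The pair on chr8:32103724-32104204 had 4 and stood at percentiles 19.98 and 93.2, and the pair on chr9:38035681-38036766 had 4 and stood at 25.4 and 94.2. The pair on chr18:3603327-3604029 also had 4, with percentiles of 8.62 and 71.2. The pairs on chr20:48925127-48925947 and chr20:48937585-48938373 had 4 each. These 2 and the pair on chr8:32103724-32104204 each also had 1 peak found only without TNFalpha within 100 kb. At least 2 peaks found only with TNFalpha lay within 100 kb of 73 rising pairs (13.1%, 95% Wilson interval 10.5 to 16.1%), against 9.55% of all pairs. The share was 9.69% for the middle pairs (8.09 to 11.6%), whose interval meets that of the rising pairs, and 5.73% for the falling pairs (4.09 to 7.98%).

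Grouping of the rising pairs along the chromosomes was counted. When centres at most 50 kb apart were joined, 72 of the 558 stood in 36 groups of 2, and 486 stood alone. The falling pairs gave 23 groups of 2 and 2 groups of 3, which held 52 of 558. The share over all pairs was not counted. The 36 groups spanned 0.901 to 44.3 kb, with a median of 13.1 kb. A falling pair lay inside 1 of them and a middle pair inside 2, and 7 held a peak found only with TNFalpha.

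The 7 groups that also held such a peak included a 13.2 kb stretch of chr20:48925127-48938373. Its 2 rising pairs stood at percentiles 47.0 and 49.3 without TNFalpha and at 95.7 and 97.8 with it. A 31.6 kb stretch of chr14:61614312-61645865 held 2 rising pairs, at percentiles 49.6 and 14.6 without TNFalpha and 93.2 and 86.1 with it, and 2 peaks found only with TNFalpha. On chr3:45686013-45710137, the 2 rising pairs stood at 8.02 and 41.6 without TNFalpha and at 79.4 and 92.5 with it. On chr17:57902854-57915400, they stood at 1.16 and 73.6 without TNFalpha and at 69.1 and 93.7 with it. The other 3 groups were weaker with TNFalpha. On chr10:29910113-29948502 the 2 pairs stood at 47.4 and 85.0 with TNFalpha, and on chr8:52087281-52091875 at 48.3 and 86.6. On chr10:17707745-17716126 they stood at 55.0 and 63.8. All 4 peaks of the chromosome 10 groups were narrower with TNFalpha, the first from 597 to 505 bp and from 855 to 676 bp, the second from 356 to 327 bp and from 438 to 325 bp.

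The rising pairs were spread over all 22 autosomes and chromosome X. Their share of the pairs of a chromosome ran from 15.6% on chromosome 18 (5 of 32, 95% Wilson interval 6.86 to 31.8%) to 41.7% on chromosome 22 (5 of 12, 19.3 to 68.0%). Chromosome 1 held the most, 64 of 246 pairs. Of the chromosomes with at least 100 pairs, chromosome 20 had the lowest share, 17 of 100 (10.9 to 25.5%), and chromosome 6 the highest, 52 of 185 (28.1%, 22.1 to 34.98%). The interval of every chromosome included 25%, the share over all pairs.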

How the data were processed

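c-Jun ChIP-seq was analysed from 4 peak lists, 2 per c-Jun library, called against IgG and against input per the labels. Reads were processed with CASAVA 1.8 and Bowtie 0.12.9 on hg19, per the submitters' processing notes. Peak names begin with MACS, per the files. The version, threshold and filters of the caller were not given in the sources used here. The deposited value is a score per peak by the authors, with a minimum of about 50, used only to rank peaks within a list. Tied scores took their mean rank in the percentiles and the best rank of the tie in the ranks given. Coordinates are 1-based hg19 positions. No hg19 genome or annotation was used, so gene positions and sequences were not analysed here. The pairs named are the 20 largest differences, the 10 highest with TNFalpha and 3 on each side of the limit, besides examples marked as chosen later. Members and lists were chosen with earlier results of these data known. Neighbour distances run between peak centres. Python 3.11.15, numpy 2.4.6, pandas 2.3.3, scipy 1.17.1 and matplotlib 3.10.9 were used. Overlaps were checked against bedtools 2.31.1 in 4 list comparisons, with 0 differing. The pairing was also run on simulated data, where 200 of 200 raised pairs were recovered among 2231. Those pairs were raised far beyond the added noise, so the recovery checks the code and not how small a rise can be found.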

Additional observations from a re-analysis of the deposited data

How the results depend on the processing

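No paired analysis was possible because there was a single library per condition, and none could be left out. Depth, which limits every rank, is unknown. Comparisons of gene positions and sequence motifs were intended and not run. The rising pairs of each alternative are given as the share of the 558 they kept, then their median difference. Overlap of at least 50% of both peaks kept 83.9% (median 34.2), because 90 members were no longer paired. Percentiles within the paired peaks kept 92.8% (34.8), equal numbers of peaks in both lists 82.6% (32.2), and pairs called against both controls 88.0% (36.5). Percentiles in the input-controlled lists kept 68.5% (18.5), and 67.7% (31.8) within paired peaks, an alternative chosen after seeing the data. Here 67 members lacked an input rank in 1 or both libraries. The largest 10%, 223 pairs, held 40.0% (53.3), and the largest 50%, 1116 pairs, had a median of 20.02. Choosing the partner by overlap length, keeping reciprocal best pairs, and keeping chromosomes 1 to 22 and X kept 99.8%, 99.5% and 100%. The share with a neighbour found only with TNFalpha was 19.0% within 20 kb, 10.4% within 5 kb and 36.6% within 100 kb, and between 17.0 and 21.1% under the alternatives at 20 kb. Of the 20 pairs with the largest differences, 8 remained with overlap of at least 50% of both peaks, 17 in the input-controlled lists and with both controls, and 20 in the others. Of the 10 highest with TNFalpha, 6 remained with overlap of at least 50%, 9 with percentiles in the whole input-controlled lists, 4 in the largest 10% and 10 in the others.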

Other observations

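Against input, 20 of the 491 rising pairs ranked in all lists stood lower with TNFalpha. The largest of these differences was on chr5:124152060-124152516, at percentiles 46.7 without and 32.1 with TNFalpha against input, and 8.16 and 46.5 against IgG. On chrX:45634407-45634732 the percentiles were 75.8 and 64.7 against input, and 2.54 and 39.6 against IgG. The next 3 lay on chr5:109598170-109598889 and 165150957-165151311 and on chr9:82350323-82350748, with differences of -9.98, -9.01 and -8.05 points against input. All 5 stood below percentile 50 of the IgG list with TNFalpha and were wider with TNFalpha. They were named after their values were seen.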
